A study of Homo sapiens with 20 samples.

Results

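The genes described here are the proteasome subunit genes and the genes of their closest companions, taken as every symbol made of PSM, one letter from A to G and a number. Of 21201 gene symbols in the expression table, 48 met that rule. They were sorted by role into 7 alpha subunits of the 20S core ring (PSMA1 to PSMA7), a testis alpha subunit (PSMA8), 4 structural beta subunits (PSMB1 to PSMB4), 3 catalytic beta subunits (PSMB5, PSMB6 and PSMB7), 3 immunoproteasome subunits (PSMB8, PSMB9 and PSMB10) and the thymoproteasome subunit PSMB11. The regulatory genes were 6 ATPases of the 19S base (PSMC1 to PSMC6), 3 base subunits without ATPase activity (PSMD1, PSMD2 and PSMD4), 8 lid subunits (PSMD3, PSMD6, PSMD7, PSMD8, PSMD11, PSMD12, PSMD13 and PSMD14) and 3 chaperones of 19S assembly (PSMD5, PSMD9 and PSMD10). The remaining members were 3 subunits of the 11S activator (PSME1, PSME2 and PSME3), the activator PA200 (PSME4), the inhibitor protein PI31 (PSMF1) and 4 chaperones of 20S assembly (PSMG1 to PSMG4).

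RNA sequencing had been carried out on 5 human tumor cell lines, each grown for 24 h with 1 µM G007-LK, a tankyrase inhibitor (TNKSi), or with 0.01% DMSO as the control. The TNKSi-sensitive lines were ABC-1 from lung, COLO320DM from large bowel, OVCAR-4 from ovary and UO-31 from kidney, and RKO (colon) was the TNKSi-insensitive control line. Each line and treatment had 2 biological replicates or 20 libraries in all. A tumor type was thus represented by 1 cell line, or by 2 for the large bowel, and the comparison asked how the transcripts of sensitive and insensitive cells respond to tankyrase inhibition.

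The proteasome is the cell's main protease for ubiquitin-tagged proteins. A barrel of stacked alpha and beta rings, the 20S core, holds the proteolytic sites in its beta subunits, and a 19S cap recognizes the ubiquitin chain, unfolds the protein with a ring of ATPases and feeds it into the barrel. Interferon replaces the catalytic beta subunits PSMB5, PSMB6 and PSMB7 by PSMB8, PSMB9 and PSMB10 in newly built particles, which changes the peptides that reach HLA class I molecules. When proteasome activity is limiting, the transcription factor NRF1 (encoded by NFE2L1) binds antioxidant response elements upstream of the subunit genes, which are therefore known for moving together.

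Stretches of 5 promoters that hold a motif match are shown first. PSMG1, PSMD12 and PSMD14 were among the 11 members lower in all 4 sensitive lines, of which 6 had an antioxidant response element core. PSMB10 and PSME2 belong to the inducible genes that did not follow the other subunits everywhere. Each is written 5′ to 3′ on the gene's strand, from RefSeq promoter windows that run from 250 bases before to 50 bases after an annotated start (table build GRCh38.p14), and each was found at 1 place in GRCh37 (hg19) by exact match. Capitals mark a match to the antioxidant response element core, TGANNNNGC, in the first 3 stretches and to the core of the interferon-stimulated response element, a GAAA repeated after any 2 bases, in the last 2.
PSMG1: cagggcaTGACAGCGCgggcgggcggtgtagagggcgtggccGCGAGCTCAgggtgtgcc
PSMD12: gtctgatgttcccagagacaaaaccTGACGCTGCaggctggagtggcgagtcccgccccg
PSMD14: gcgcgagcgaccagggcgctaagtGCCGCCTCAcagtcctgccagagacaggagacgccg
PSMB10: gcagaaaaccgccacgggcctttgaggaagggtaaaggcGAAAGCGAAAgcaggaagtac
PSME2: gacctggggagtGAAAGCGAAAgcccgggc

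The PSMG1 stretch covers bases 190 to 131 before the start, at chr21:40555508-40555567 on the minus strand, and holds 2 matches, the second on the opposite strand. The PSMD12 stretch covers the same distance, 190 to 131 bases before the start, at chr17:65362824-65362883 on the minus strand. The PSMD14 stretch lies at chr2:162164766-162164825 on the plus strand, 170 to 111 bases before the start, with its match on the opposite strand. The PSMB10 stretch is the last 60 bases before the start, at chr16:67970754-67970813 on the minus strand. The PSME2 stretch covers bases 40 to 11 before the start, at chr14:24615830-24615859 on the minus strand, inside a longer PSME2 gene model of the GENCODE annotation (14:24612571-24616779).

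Windows were found for 42 of the 48 members, 51 windows in all because some genes have more than 1 start, and PSMA7, PSMB1, PSMB6, PSMB7, PSMD4 and PSMG3 had none in the table. Both strands were searched for 4 motifs. The antioxidant response element core was found in 32 of the 51 member windows (62.7%, in 28 genes) and in 14691 of all 35116 windows of the same length (41.8%). The interferon-stimulated response element core was found in 7 member windows (13.7%), those of PSMA4, PSMB4, PSMB8, PSMB10, PSME1, PSME2 and PSMG4, against 3.57% of all windows. The interferon gamma-activated site, TTCNNNGAA, was found in 8 member windows (15.7%, against 7.66%), and the E-box CACGTG, which is bound by MYC with MAX among others, in 3 member windows (5.88%, against 7.26%), those of PSMB3, PSMD9 and PSME3. Matches to different motifs overlapped each other in 2 members, PSMA8 and PSMB5. These are matches of letters in a window, not sites shown to be bound.

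All values are RPKM, read counts divided by gene length and by the mapped reads of the library, and can be compared between genes per unit of length. Summed RPKM lay between 367196 and 523395 in 4 lines and between 863076 and 909187 in OVCAR-4, so that RPKM levels of OVCAR-4 are high for genes in general. The table holds no read counts and the depth of the libraries is unknown, although the steps between low values put each library at 0.856 to 1.11 times the reads of the first DMSO library of its line. Markers of 3 of the labelled tissues were checked: summed CDX2 and VIL1 (colon) were at 516 to 763 RPKM in COLO320DM but 6.88 to 7.48 in RKO, and NKX2-1 and NAPSA (lung) were at only 1.97 to 4.40 in ABC-1. The 3 ovary markers, PAX8 among them, summed to 88.6 to 102 in OVCAR-4 and also to 64.3 to 84.0 in UO-31. These sums rest on few genes. Only 1 of the 2 colon markers averaged at least 1 RPKM in COLO320DM and in RKO, and 1 of the 2 lung markers in ABC-1. Of the 3 ovary markers, 2 reached that level in OVCAR-4 and 1 in UO-31. Blood cell markers summed to 341 to 357 RPKM in RKO, where CD68 was the only one with a mean of at least 1 RPKM. In UO-31 the second G007-LK library was apart from the first by a median of -0.29 over all tested genes and -0.16 over the members (log2), and in COLO320DM the second DMSO library was higher than the first by 0.17 and 0.09.

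In the DMSO libraries the proteasome genes were among the abundant transcripts of every line. The members' median level was 80.8 RPKM in COLO320DM, 98.6 in UO-31, 190.4 in OVCAR-4, 82.7 in ABC-1 and 85.2 in RKO, against medians of 10.2, 11.3, 17.4, 11.2 and 11.2 RPKM for all genes tested. The highest member was PSMB4, a structural beta subunit, in COLO320DM (421 RPKM), OVCAR-4 (896) and ABC-1 (432), and PSMD2, a scaffold subunit of the 19S base, in UO-31 (482) and RKO (433). PSMA7, an alpha subunit, was among the 3 highest members in each line. PSMA8 and PSMB11 were listed at 0 or at most 0.0572 RPKM in every library, with missing values taken as 0 (37 values over all members).

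**Figure D1:**
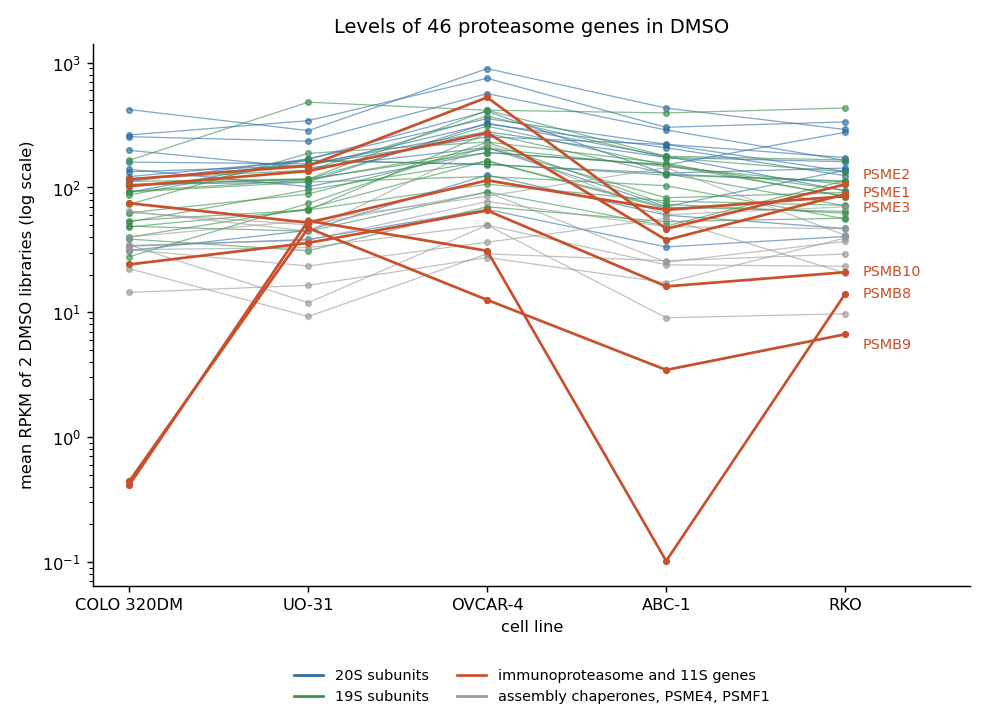
Levels of the 46 proteasome genes tested in at least 1 line in the DMSO libraries (mean RPKM of 2 libraries, log axis), one point per line and gene, grouped by role. The immunoproteasome subunits PSMB8 and PSMB9 spread over the widest range, while the alpha subunit PSMA1 lies between 122 and 164 RPKM in all 5 lines.

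Between lines, the DMSO level of all 46 members tested differed in the moderated F test of limma, as it did for 99.3% of all genes tested. The distance between the lowest and the highest line was 0.43 for PSMA1, the narrowest, and had a median of 1.63 over the members against 1.98 over all genes (log2). Among genes averaging 20 RPKM or more the medians were 1.61 for 44 members and 1.86 for 4447 genes. ABC-1 and RKO had been grown in another medium than the other 3 lines, and medium and line cannot be told apart.

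Of all members tested, PSMB8 and PSMB9 had the widest ranges between lines (6.51 and 5.67, log2). PSMB8, the inducible counterpart of PSMB5, was at 54.7 and 53.5 RPKM in the DMSO libraries of UO-31, with 30.2 and 31.9 for OVCAR-4, 13.9 and 14.2 for RKO, 0.277 and 0.547 for COLO320DM and 0.150 and 0.0534 for ABC-1. From UO-31 down to COLO320DM every neighbouring pair differed, as 74.9% to 87.7% of all genes did in the 10 pairs of lines (adjusted p = 0.00013 for UO-31 over OVCAR-4 by 0.79, log2). COLO320DM and ABC-1 both lay below 1 RPKM, and PSMB8 was tested between them only through its level in other lines. No order of these 2 lines is drawn from that test. The step of 1.12 from RKO to OVCAR-4 came to 0.14 (adjusted p = 0.31) once the libraries were rescaled by their median ratios. PSMB9, the counterpart of PSMB6, was at 46.9 and 47.7 RPKM in UO-31, followed by OVCAR-4 with 12.4 and 12.7, RKO with 6.28 and 7.03, ABC-1 with 3.51 and 3.39 and COLO320DM with 0.390 and 0.494. Its step from RKO to OVCAR-4 was 0.87 as deposited and -0.08 (adjusted p = 0.32) after rescaling.

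The GENCODE models of PSMB8 (6:32808494-32812456, minus strand) and PSMB9 (6:32811913-32827628, plus strand) overlap by 544 bases in the HLA region of chromosome 6, and no source used here says whether reads were assigned by strand, so the split between them is uncertain. PSMB10, the counterpart of PSMB7, lies apart from them at 16:67968409-67970767. It was highest in OVCAR-4 (64.9 and 65.9 RPKM), ahead of UO-31 (35.4 and 36.5), and the log2 difference, UO-31 minus OVCAR-4, of -0.85 was -0.02 after rescaling (adjusted p = 0.85). PSME1 and PSME2, the interferon-inducible subunits of the 11S activator, were lowest in ABC-1, where they were below OVCAR-4 by 2.84 and 3.49 (log2), or 1.88 and 2.52 after rescaling. PSMB5 was also lowest in ABC-1 (-0.96, ABC-1 minus RKO), whereas the tests of UO-31 minus RKO (0.06, adjusted p = 0.26) and COLO320DM minus OVCAR-4 (-0.07, adjusted p = 0.15) were not passed. After rescaling the last difference was 0.89 (adjusted p = 3.1e-08), so the order of these 2 lines turned on the scaling. PI31, the product of PSMF1, was known first as an inhibitor of the 20S core, and PSMF1 was highest in ABC-1 (-0.76, OVCAR-4 minus ABC-1, and -1.72 after rescaling).

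After 24 h with G007-LK the proteasome genes took a smaller share of the RPKM of every line. In COLO320DM the 48 members made up 1.06% and 1.04% of the summed RPKM with DMSO and 0.927% and 0.929% with G007-LK. In UO-31 the shares were 1.00% and 1.01% with DMSO and 0.832% and 0.856% with G007-LK. In ABC-1 they were 1.11% and 1.11%, against 0.926% and 0.945%. The groups did not overlap in these lines, nor in OVCAR-4, with 1.14% and 1.14% against 1.11% and 1.10%, nor in RKO, with 1.15% and 1.16% against 1.13% and 1.13%. Relative to its DMSO value the share changed by -11.6% in COLO320DM, -16.2% in UO-31, -3.20% in OVCAR-4, -15.8% in ABC-1 and -2.04% in RKO. In these bulk samples, fewer cells that express a gene and less RNA of it per cell cannot be told apart.

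**Figure D2:**
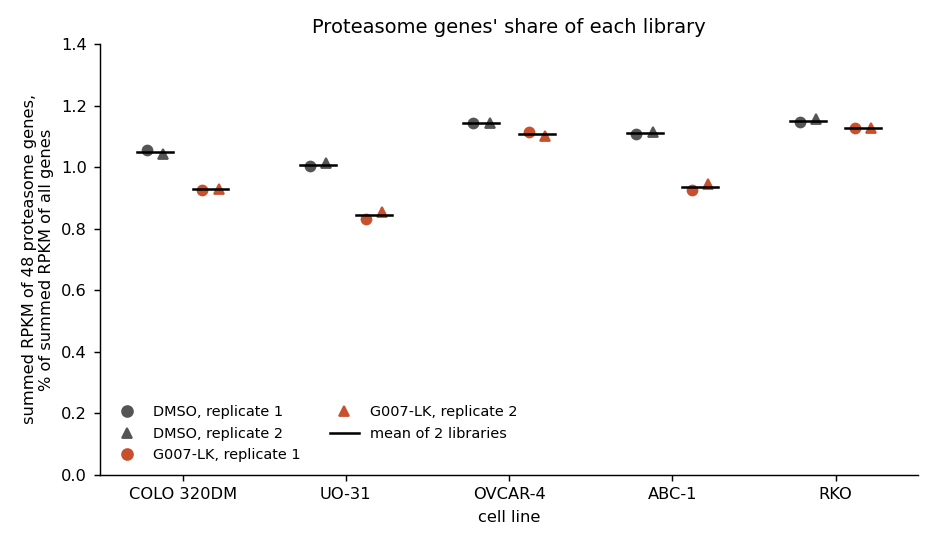
Share of the summed RPKM taken by the 48 proteasome genes in each library (percent), by line and treatment, one point per library. In each of the 5 lines both G007-LK libraries lie below both DMSO libraries, with small gaps in OVCAR-4 and RKO.

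Gene by gene, each line was tested with limma on log2(RPKM + 0.5) over all genes whose RPKM in that line averaged 1 or more, and a gene was called at a Benjamini-Hochberg adjusted p under 0.05. Fold changes on this scale are slightly understated for genes of low RPKM. In COLO320DM, 44 members were tested and 20 were called lower and 0 higher, against 11.6% lower and 7.7% higher among all genes tested. Every one of the 44 had a log2 fold change below 0, with a median of -0.25 against -0.01 for all genes. The count rests on both G007-LK libraries: it was 4 without the first and 0 without the second.

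In UO-31, 46 members were tested and 17 were called lower and 0 higher, against 8.63% and 4.79% of all genes. The median change was -0.31 against -0.04 for all genes, and 42 members were below 0. Leaving out either DMSO library left 0 calls, and leaving out the first or second G007-LK library gave 41 or 31.

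In ABC-1, 39 of 45 members tested were called lower and 1, PSME1, was called higher, against 41.2% and 16.6% of all genes. The median was -0.42 against -0.14 for all genes. Between 32 and 41 members were called lower when any 1 of the 4 libraries was left out.

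In OVCAR-4, 28 of 46 members were called lower and 2 higher, against 39% and 12.6% of all genes, and the members' median of -0.13 lay next to the median of all genes, -0.11. The 2 were the immunoproteasome genes PSMB8 and PSMB10. Without the second DMSO library 17 were called lower, and without the first 1 was called higher. In RKO, 5 of 46 members were called lower (PSMC1, PSMC5, PSMD2, PSMD14 and PSME3) and 0 higher, against 2.75% and 1.36% of all genes. The median was -0.06 against -0.02, and at most 1 of the 5 calls was made when any library was left out.

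Because the median gene was below 0 by over 0.1 in OVCAR-4 and ABC-1, the libraries were also rescaled so that their median ratio was equal. In COLO320DM, 26 members were then called lower and 0 higher (20.2% and 18.4% of all genes), in UO-31 23 and 0 (15.5% and 14.6%), and in ABC-1 32 and 2 (32.4% and 31.4%), with medians of -0.23, -0.27 and -0.27. In OVCAR-4 the members split into 11 lower and 10 higher (23% and 24.1% of all genes) with a median of -0.02, and in RKO 1 member, PSMD2, stayed lower (1.06% and 1.65%). Relative to the median gene of the line, the median member was thus lower in COLO320DM, UO-31 and ABC-1 and close to it in OVCAR-4 and RKO.

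**Figure D3:**
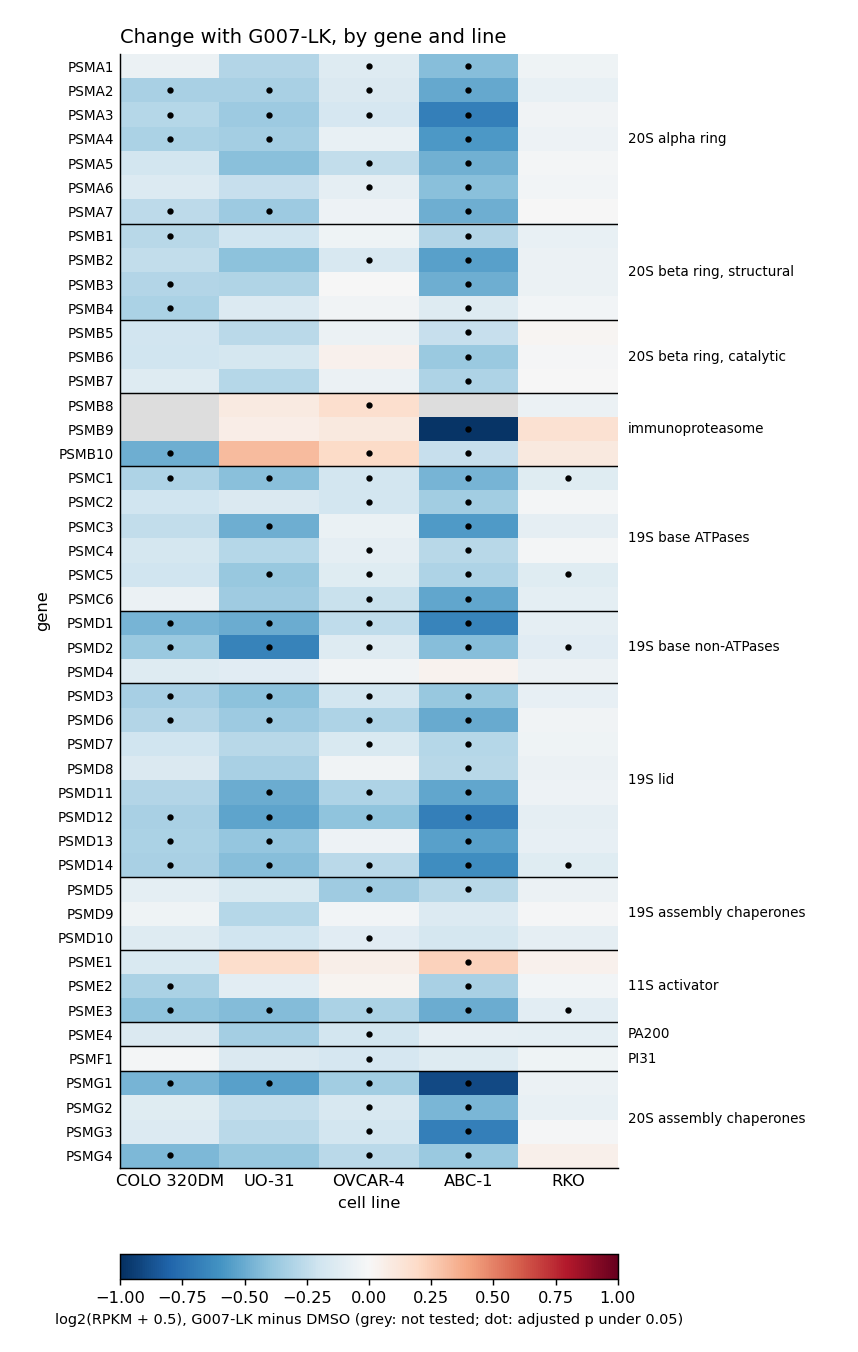
Log2 fold change (G007-LK over DMSO, on log2(RPKM + 0.5)) of each tested proteasome gene in the 5 lines, grouped by role, with called genes marked. COLO320DM, UO-31 and ABC-1 lie almost wholly below 0 and RKO close to 0. Rescaling by the median ratio leaves 26, 23 and 32 members lower in those 3 lines and splits OVCAR-4 into 11 lower and 10 higher.

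With the 4 sensitive lines in 1 fit and the line as a block (16 libraries), 41 of the 44 members tested, which leave out PSMA8, PSMB8, PSMB9 and PSMB11, were lower and 0 higher, against 33.8% and 10.2% of all genes. The median was -0.26 against -0.09 for all genes, and after rescaling 30 members were lower and 1, PSME1, was higher (28% and 21.9% of all genes). Leaving out 1 library gave 36 to 41 lower and leaving out 1 line 34 to 39, but 1 member was called lower from the first replicates of all lines alone. The 3 members not called were PSMD4, a ubiquitin receptor of the cap (-0.06, adjusted p = 0.198), PSMB10 (-0.05, adjusted p = 0.654) and PSME1 (0.08, adjusted p = 0.233).

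By the number of sensitive lines in which they were called lower, 11 of the 44 members tested in all 4 were lower in each of them, against 3.75% of all genes tested there, and 8 after rescaling, against 5.91%. Over all 48 members, another 6 were lower in 3 lines, 17 in 2, 8 in 1 and 6 in none. PSMB8 was tested in only 2 of the sensitive lines and PSMB9 in 3. How many of all genes were lower in 3, 2, 1 or none of the lines was not counted, so these numbers have no background. In OVCAR-4 and ABC-1 alone 39% and 41.2% of all genes were lower. The 11 were the alpha subunits PSMA2 and PSMA3, the ATPase PSMC1, the base subunits PSMD1 and PSMD2, the lid subunits PSMD3, PSMD6, PSMD12 and PSMD14, the activator subunit PSME3 and the chaperone PSMG1. Of these 11, the promoter windows of 6 held the antioxidant response element core (PSMA3, PSMD1, PSMD3, PSMD12, PSMD14 and PSMG1), as did those of 28 of the 42 members with a window. The interferon gamma-activated site was found in 4 of the 11 and 8 of the 42, and the interferon-stimulated response element core in 0 of the 11 and 7 of the 42. After rescaling, the 8 members lower in all 4 lines were PSMD1, PSMD6, PSMD11, PSMD12, PSMD14, PSME3, PSMG1 and PSMG4. PSMD11 and PSMG4 were not among the 11. Of these 8, the antioxidant core was found for PSMD1, PSMD12, PSMD14 and PSMG1. The gamma-activated site was found for PSME3 only and the interferon-stimulated core for PSMG4 only. The 6 called lower in no sensitive line were PSMA8 and PSMB11, which were not tested, and PSMB8, PSMD4, PSMD9 and PSME1.

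PSMG1 makes with PSMG2 the chaperone pair that assembles the alpha ring, and lies at 21:40546695-40555414. It had the largest pooled change of all members (-0.57 ± 0.07 SE, adjusted p = 1.7e-05). In COLO320DM it was at 60.7 and 68.6 RPKM with DMSO and 48.3 and 44.8 with G007-LK (-0.47 ± 0.10, adjusted p = 0.00221). In UO-31 its levels were 43.7 and 45.6 against 33.5 and 27.6 (-0.55 ± 0.16, adjusted p = 0.00657). The G007-LK libraries lay below the DMSO libraries in both lines. In OVCAR-4 they were 219 and 226 against 173 and 175 (-0.35 ± 0.04, adjusted p = 8.5e-06), and in ABC-1 57.2 and 63.8 against 32.0 and 32.2 (-0.90 ± 0.08, adjusted p = 3.5e-29). RKO had 70.1 and 69.6 against 68.2 and 66.2, a difference that did not pass the test (-0.06 ± 0.03, adjusted p = 0.244). All 4 calls were kept after rescaling.

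PSMG3 and PSMG4 form the other chaperone pair of 20S assembly. PSMG4 fell in COLO320DM from 34.5 and 34.8 to 25.6 and 24.8 RPKM (-0.45 ± 0.10, adjusted p = 0.00452). PSMG3 fell in ABC-1 from 56.8 and 56.3 to 34.2 and 35.8 RPKM (-0.69 ± 0.08, adjusted p = 2.0e-17). Of the 4 chaperones of 20S assembly, 2 were lower in COLO320DM, 1 in UO-31, 4 in OVCAR-4, 4 in ABC-1 and 0 in RKO. Here as for the roles that follow, the shares of all genes called lower in these lines were 11.6%, 8.63%, 39%, 41.2% and 2.75%, in the same order. After rescaling the counts were 2, 2, 2, 4 and 0, against 20.2%, 15.5%, 23%, 32.4% and 1.06% of all genes. Their summed RPKM in ABC-1 changed by -37.4%, the largest difference of any role there.

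In the alpha ring, the outer ring of the 20S barrel, 4 of 7 subunits were lower in COLO320DM, 4 in UO-31, 5 in OVCAR-4, 7 in ABC-1 and 0 in RKO, with medians of -0.26, -0.34, -0.13, -0.49 and -0.04. PSMA3 in ABC-1 went from 173 and 182 RPKM to 111 and 109.9 (-0.68 ± 0.06, adjusted p = 3.4e-26). The 4 structural beta subunits were lower in 3, 0, 1, 4 and 0 instances in the same order of lines. After rescaling, the counts of lower alpha subunits were 4, 5, 1, 7 and 0 and those of structural beta subunits 4, 1, 0, 3 and 0, and 3 structural beta subunits were higher in OVCAR-4.

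The catalytic beta subunits passed the test in ABC-1 only among the 5 lines, where all 3 were lower. PSMB5 carries the chymotrypsin-like site, the target of bortezomib, at 14:23485752-23504439. In ABC-1 it was at 69.9 and 70.8 RPKM with DMSO and 58.2 and 61.5 with G007-LK (-0.23 ± 0.07, adjusted p = 0.00306), which rescaling brought to -0.08 (adjusted p = 0.29) and quantile normalization to 0.02 (adjusted p = 0.791). COLO320DM had 193 and 204 RPKM against 175 and 172 (-0.19 ± 0.07, adjusted p = 0.0717). The values in UO-31 were 145 and 141 against 121 and 118 (-0.27 ± 0.12, adjusted p = 0.142). In both of these lines the treated libraries lay below the controls, although the test was not passed. OVCAR-4 had 212 and 206 against 199 and 201 (-0.06 ± 0.04, adjusted p = 0.168), and RKO had 135 and 139.9 against 139 and 139.9 (0.02 ± 0.02, adjusted p = 0.656).

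PSMB6 carries the caspase-like site. In ABC-1 it fell from 219.7 and 222 RPKM to 166 and 175 (-0.37 ± 0.06, adjusted p = 1.5e-09), and the call was kept after rescaling. COLO320DM had 115 and 117 RPKM with DMSO and 102 and 99.9 with G007-LK (-0.20 ± 0.08, adjusted p = 0.0878). The treated libraries of UO-31 were also below the controls, at 137 and 133 against 152 and 153 (-0.17 ± 0.12, adjusted p = 0.404). In OVCAR-4 the groups overlapped, with 259.6 and 249 against 259 and 265 (0.04 ± 0.04, adjusted p = 0.34), and PSMB6 was higher there only after rescaling (0.16, adjusted p = 0.0041). RKO had 136 and 133 against 134 and 133 (-0.01 ± 0.02, adjusted p = 0.771).

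PSMB7 carries the trypsin-like site. In ABC-1 it was at 149 and 154 RPKM with DMSO and 118 and 127 with G007-LK (-0.31 ± 0.06, adjusted p = 3.8e-06). The levels in COLO320DM were 137 and 142 against 131 and 125 (-0.13 ± 0.08, adjusted p = 0.271). Those of UO-31 were 105 and 98.3 against 87.7 and 78.6 (-0.29 ± 0.13, adjusted p = 0.138). These 2 lines had both treated libraries below both controls for PSMB7 as well, without a call. How many of all genes did so was not counted, so this has no background. OVCAR-4 had 189 and 192 against 179 and 186 (-0.06 ± 0.04, adjusted p = 0.185), and RKO had 274 and 279.6 against 273 and 278 (-0.01 ± 0.02, adjusted p = 0.916). Over the 4 sensitive lines together, PSMB5, PSMB6 and PSMB7 were lower by similar amounts (-0.19, -0.18 and -0.20, adjusted p = 0.00079, 0.00687 and 0.00206), but none of these 3 calls was kept after rescaling (adjusted p = 0.091, 0.20 and 0.051).

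The immunoproteasome subunits moved in different directions in different lines. PSMB10, called lower in 2 lines and higher in 1, was the only member called in opposite directions on the deposited scale. After rescaling other members were too, among them PSMB6, lower in ABC-1 and higher in OVCAR-4. Structural beta subunits were then lower in COLO320DM and higher in OVCAR-4. In COLO320DM PSMB10 fell from 25.4 and 22.9 RPKM to 17.3 and 16.8 (-0.49 ± 0.11, adjusted p = 0.00581), the largest fall of a called member in that line. In OVCAR-4 it rose from 64.9 and 65.9 to 73.1 and 76.8 (0.20 ± 0.04, adjusted p = 0.00238), the largest rise of a member there. Rescaling kept both calls. In ABC-1 it went from 16.6 and 15.7 to 13.3 and 13.96 (-0.23 ± 0.10, adjusted p = 0.0321), a call lost after rescaling (-0.09, adjusted p = 0.34). UO-31 had higher values in both treated libraries, 44.1 and 45.4 against 35.4 and 36.5, which missed the threshold (0.31 ± 0.15, adjusted p = 0.188). RKO had 20.7 and 21.2 against 23.6 and 21.2 (0.09 ± 0.05, adjusted p = 0.279).

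The response of PSMB10 differed between lines when the difference itself was tested. The response of COLO320DM minus that of UO-31 was -0.80 ± 0.13 (adjusted p = 0.0158), minus that of OVCAR-4 -0.68 ± 0.11 (adjusted p = 0.00023) and minus that of RKO -0.58 ± 0.11 (adjusted p = 0.0090).

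PSMB9 fell in ABC-1 from 3.51 and 3.39 RPKM to 1.32 and 1.68 (-0.98 ± 0.13, adjusted p = 4.0e-13), the largest change of any called member in any line, at a low level. The OVCAR-4 libraries had 12.4 and 12.7 RPKM with DMSO and 12.8 and 14.2 with G007-LK (0.10 ± 0.07, adjusted p = 0.259). UO-31, where PSMB9 was most abundant, had 46.9 and 47.7 against 49.99 and 49.4 (0.07 ± 0.15, adjusted p = 0.853). In these 2 lines, as in RKO, the treated libraries were above the controls, and the test was not passed as deposited, while after rescaling PSMB9 was called higher in OVCAR-4 (0.20, adjusted p = 0.02). RKO had 6.28 and 7.03 against 7.15 and 7.73 (0.15 ± 0.06, adjusted p = 0.2). COLO320DM was below the level for testing at 0.390 and 0.494 against 0.436 and 0.499. The response of ABC-1 was more negative than that of UO-31 by 1.05 ± 0.18 (adjusted p = 0.00755).

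PSMB8 rose in OVCAR-4 from 30.2 and 31.9 RPKM to 34.5 and 35.5 (0.17 ± 0.05, adjusted p = 0.014), and this call was kept after rescaling (0.28, adjusted p = 0.00057). UO-31 had 54.7 and 53.5 against 60.9 and 54.8 (0.09 ± 0.14, adjusted p = 0.778). RKO had 13.9 and 14.2 against 13.6 and 13.3 (-0.06 ± 0.04, adjusted p = 0.404). The treated libraries of UO-31 were both above its controls and those of RKO both below, without a call. The gene was near 0 in the remaining lines, with 0.277 and 0.547 against 0.483 and 0.414 in COLO320DM and 0.150 and 0.0534 against 0.0722 and 0 in ABC-1, where it was not tested. OVCAR-4 and RKO differed in their response by 0.23 ± 0.06 (adjusted p = 0.0111).

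Set against its constitutive counterpart, the inducible subunit took a larger part of the pair after G007-LK in UO-31 and OVCAR-4 for PSMB8 and PSMB10. PSMB8 made up 27.3% and 27.5% of PSMB8 plus PSMB5 RPKM in UO-31 with DMSO and 33.5% and 31.8% with G007-LK, and in OVCAR-4 12.5% and 13.4% against 14.7% and 15.0%. PSMB10 made up 25.3% and 27.0% of PSMB10 plus PSMB7 in UO-31 with DMSO and 33.5% and 36.6% with G007-LK, and in OVCAR-4 25.6% and 25.5% against 29.1% and 29.2%. In COLO320DM the PSMB10 part was smaller with treatment, 11.7% and 11.8% against 15.6% and 13.9%. PSMB9 made up 23.6% and 23.8% of PSMB9 plus PSMB6 in UO-31, against 26.8% and 27.1% with G007-LK, and in ABC-1 1.57% and 1.504% against 0.793% and 0.951%. In RKO the PSMB9 part was 5.08% and 5.504% with G007-LK against 4.42% and 5.02%, the PSMB10 part 7.94% and 7.09% against 7.02% and 7.04%, and the PSMB8 part 8.88% and 8.70% against 9.31% and 9.22%. The insensitive line thus also had a higher PSMB9 and PSMB10 part in both treated libraries, and a lower PSMB8 part. These ratios within a library do not depend on its scaling, and with 2 libraries a group they were not tested.

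**Figure D4:**
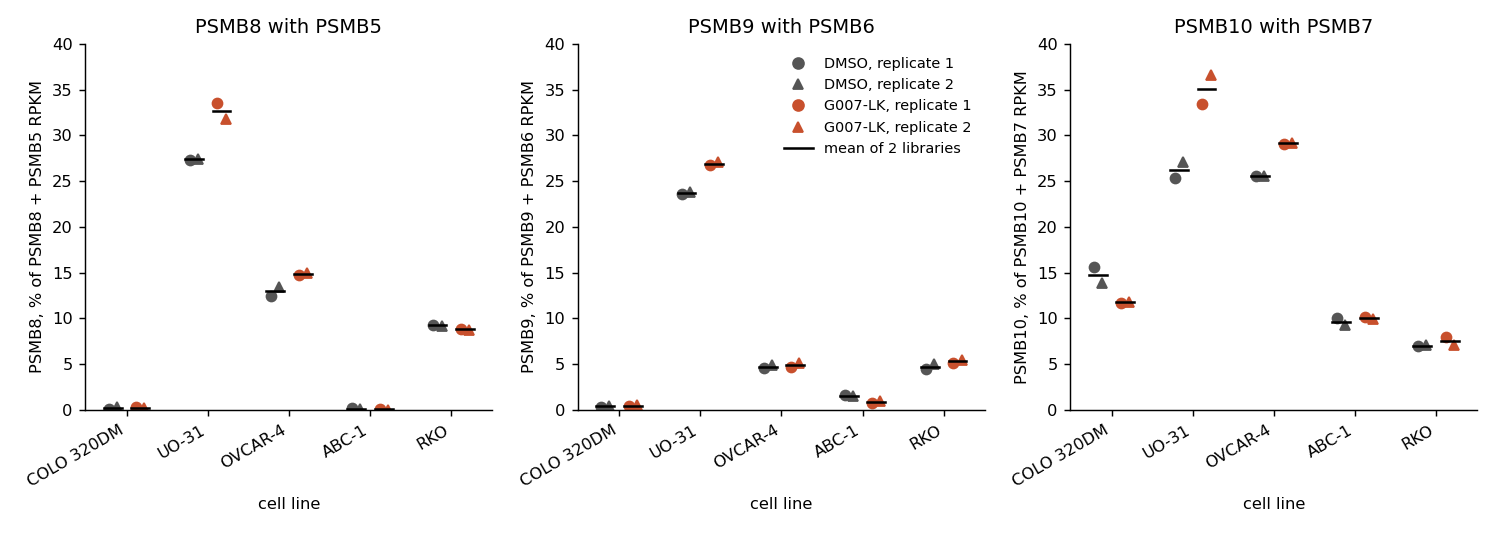
Share of the inducible subunit in the RPKM of each pair (percent), PSMB8 with PSMB5, PSMB9 with PSMB6 and PSMB10 with PSMB7, one point per library by line and treatment. All 3 shares are higher with G007-LK in UO-31, the PSMB10 share is lower in COLO320DM, and the PSMB8 share is near 0 in COLO320DM and ABC-1.

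The 11S activator, a cap that opens the 20S core without ubiquitin, has interferon-inducible subunits, PSME1 and PSME2, and a nuclear one, PSME3. PSME1 rose in ABC-1 from 35.7 and 40.2 RPKM to 44.6 and 44.3 (0.23 ± 0.08, adjusted p = 0.00824), a call kept after rescaling (0.38) but in only 1 of the 4 fits that left out a library. COLO320DM had 98.4 and 106 against 94.4 and 89.7 (-0.15 ± 0.08, adjusted p = 0.22). UO-31 had 139 and 132 against 155 and 149.9 (0.17 ± 0.12, adjusted p = 0.408). Both treated libraries were thus higher in UO-31 and lower in COLO320DM, without a call. OVCAR-4 had 271 and 277 against 286 and 286 (0.06 ± 0.03, adjusted p = 0.138), with a call after rescaling (0.17, adjusted p = 0.00067), and RKO had 89.3 and 87.3 against 89.0 and 92.5 (0.04 ± 0.03, adjusted p = 0.442).

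PSME2, which forms a ring with PSME1, fell in COLO320DM from 114 and 119 RPKM to 95.9 and 90.7 (-0.32 ± 0.08, adjusted p = 0.00996) and in ABC-1 from 44.2 and 49.0 to 37.7 and 36.5 (-0.32 ± 0.08, adjusted p = 0.00012). UO-31 had 156 and 142 against 141 and 136 (-0.10 ± 0.12, adjusted p = 0.687). Its treated libraries in UO-31 were below the controls without a call. OVCAR-4 had 519 and 534 against 539.7 and 531 (0.02 ± 0.03, adjusted p = 0.533), with a call higher after rescaling (0.14, adjusted p = 0.0023). RKO had 105 and 107 against 105 and 102 (-0.03 ± 0.02, adjusted p = 0.546). In ABC-1, therefore, PSME1 was called higher and PSME2 lower in the same libraries.

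PSME3, the subunit of the nuclear 11S activator, was lower in all 5 lines. It went from 67.5 and 82.2 RPKM to 57.7 and 54.6 in COLO320DM (-0.40 ± 0.10, adjusted p = 0.00775) and from 52.7 and 51.7 to 44.3 and 33.6 in UO-31 (-0.43 ± 0.15, adjusted p = 0.0346). OVCAR-4 had 113 and 115 against 91.8 and 91.3 (-0.32 ± 0.04, adjusted p = 3.6e-05), and ABC-1 had 62.2 and 69.9 against 48.02 and 45.2 (-0.50 ± 0.07, adjusted p = 2.0e-10). The 2 groups did not overlap in any line. In RKO it was at 84.3 and 85.8 against 78.8 and 79.1 (-0.11 ± 0.02, adjusted p = 0.0377), a call lost after rescaling (adjusted p = 0.093).

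Among the regulators without a 19S role, PSMF1 (20:1093883-1170059) was lower in OVCAR-4 only, at 74.1 and 77.4 RPKM against 85.1 and 84.8 with DMSO (-0.16 ± 0.04, adjusted p = 0.0056), and not after rescaling (-0.05, adjusted p = 0.26). ABC-1, with the highest level, had 139 and 149 against 132 and 132 (-0.13 ± 0.06, adjusted p = 0.0671). COLO320DM had 38.6 and 41.6 against 40.3 and 38.8 (-0.02 ± 0.10, adjusted p = 0.917). The groups overlapped in COLO320DM and in RKO, which had 40.4 and 42.3 against 39.4 and 40.9 (-0.04 ± 0.03, adjusted p = 0.505). UO-31 had 53.7 and 55.1 against 52.7 and 45.7 (-0.15 ± 0.15, adjusted p = 0.613). PSME4 was called lower in OVCAR-4 alone as deposited (-0.18), a call lost after rescaling (-0.07), when it was called lower in UO-31 instead (-0.30, adjusted p = 0.04).

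In the 19S base, PSMD1 and PSMD2 form the scaffold that binds ubiquitin receptors and shuttle factors. PSMD2 (3:184016986-184026838) fell most in UO-31, from 485 and 479.7 RPKM to 331 and 278 (-0.67 ± 0.09, adjusted p = 3.1e-10), where it had been the most abundant member. It fell from 158 and 172 to 132 and 124 in COLO320DM (-0.37 ± 0.08, adjusted p = 0.00288) and from 376 and 416 to 294 and 295 in ABC-1 (-0.42 ± 0.05, adjusted p = 1.0e-14). All 3 calls were kept after rescaling. In OVCAR-4 it went from 412 and 419.9 to 380.3 and 381 (-0.13 ± 0.03, adjusted p = 0.00454), which was -0.01 after rescaling (adjusted p = 0.7). RKO had 432 and 434 against 403 and 399.9 (-0.11 ± 0.02, adjusted p = 0.0115), the only one of the 5 RKO calls kept after rescaling (-0.09, adjusted p = 0.035). The response of UO-31 minus that of RKO was -0.56 (adjusted p = 0.0111).

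PSMD1 (2:231921559-232037830) had a pooled change of -0.47 ± 0.06 (adjusted p = 4.1e-05). Its levels in COLO320DM were 49.9 and 58.5 RPKM with DMSO and 41.1 and 37.0 with G007-LK (-0.47 ± 0.10, adjusted p = 0.00392). They were 65.6 and 66.5 against 52.7 and 41.1 in UO-31 (-0.50 ± 0.14, adjusted p = 0.00684). The treated libraries lay below the controls in these lines and in the other 3. OVCAR-4 had 105 and 107 against 89.1 and 88.3 (-0.26 ± 0.04, adjusted p = 0.00017), and ABC-1 had 72.7 and 83.0 against 50.9 and 47.0 (-0.66 ± 0.07, adjusted p = 2.6e-18). RKO had 70.8 and 73.1 against 67.6 and 67.3, without a call (-0.09 ± 0.03, adjusted p = 0.0799). PSMD4, the third base subunit, was called in no line as deposited and was at 146 and 154.3 against 153.5 and 154.7 in ABC-1 (0.04, adjusted p = 0.616). After rescaling PSMD4 was called higher in ABC-1, where PSMD1 and PSMD2 stayed lower. Its rescaled response in ABC-1 minus that in RKO was 0.22 (adjusted p = 0.0059 in the interaction test), against 0.09 as deposited (adjusted p = 0.22).

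The 6 ATPases, which unfold the substrate, were lower in 1, 3, 5, 6 and 2 instances in COLO320DM, UO-31, OVCAR-4, then ABC-1 and finally RKO, with medians of -0.20, -0.37, -0.15, -0.41 and -0.09. After rescaling the counts were 4, 5, 1, 5 and 0, with a median of -0.04 in OVCAR-4. PSMC1 and PSMC5 made up the RKO calls, at 131 and 135 RPKM against 122 and 123 (-0.12 ± 0.02, adjusted p = 0.0232) and at 105 and 107 against 97.8 and 97.2 (-0.12 ± 0.02, adjusted p = 0.0252). Neither RKO call was kept after rescaling (adjusted p = 0.055 and 0.061). PSMC1 shares its name with 13 annotated pseudogenes, and no source used here says how reads that match several genes were counted. In all, 17 members have 44 such pseudogenes, among them PSME2 with 6 and PSMA6 with 4, and their values are uncertain to that extent.

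The lid, which removes the ubiquitin chain, had these members lower: 5 of 8 in COLO320DM, 6 in UO-31, 6 in OVCAR-4, 8 in ABC-1 and 1 in RKO, with medians of -0.31, -0.40, -0.23, -0.51 and -0.07. After rescaling 7, 6, 4, 6 and 0 were lower and 1 was higher in OVCAR-4, where the median was -0.12. PSMD12 (17:65334032-65362721), a scaffold subunit, had a pooled change of -0.48 ± 0.07 (adjusted p = 4.3e-05). In COLO320DM it was at 44.5 and 53.3 RPKM with DMSO and 40.1 and 37.5 with G007-LK (-0.32 ± 0.10, adjusted p = 0.0356). In UO-31 its values were 46.4 and 42.8 against 35.8 and 26.3 (-0.53 ± 0.16, adjusted p = 0.00908). The second treated library of UO-31 was the lower one here, as it was for PSMG1, PSMD1 and PSME3. OVCAR-4 had 92.3 and 92.0 against 69.2 and 69.8, its largest fall of a member (-0.40 ± 0.04, adjusted p = 6.4e-06), and ABC-1 had 47.0 and 51.1 against 31.2 and 29.6 (-0.68 ± 0.08, adjusted p = 2.7e-16). RKO had 111 and 116 against 106 and 107, without a call (-0.09 ± 0.03, adjusted p = 0.078).

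PSMD14 (2:162164936-162268228) is the deubiquitinase of the lid. In COLO320DM it was at 59.3 and 66.1 RPKM with DMSO and 51.5 and 48.2 with G007-LK (-0.33), and in UO-31 at 90.9 and 86.3 against 73.0 and 59.5 (-0.42). It was at 204 and 214 against 172 and 174 in OVCAR-4 (-0.27) and at 80.4 and 84.9 against 55.0 and 52.5 in ABC-1 (-0.62). These 4 calls were kept after rescaling. RKO had 89.9 and 92.4 against 83.9 and 83.9 (-0.12 ± 0.02, adjusted p = 0.0291), with an adjusted p of 0.068 after rescaling. Of the 19S assembly chaperones, PSMD5 fell in OVCAR-4 from 27.2 and 27.7 to 21.3 and 21.4 RPKM (-0.35 ± 0.05, adjusted p = 0.00013), and PSMD9 was called in no line.

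**Figure D5:**
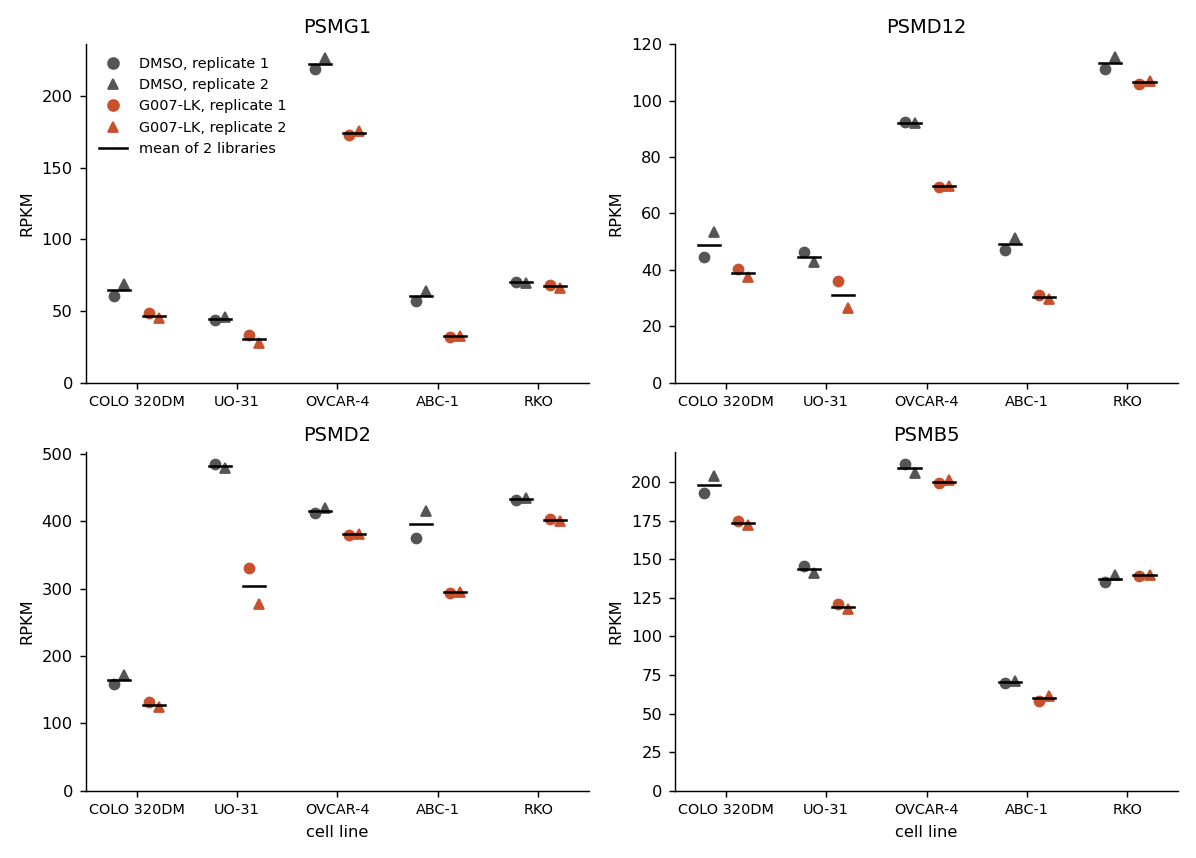
RPKM of PSMG1, PSMD12, PSMD2 and PSMB5 in every library, by line and treatment. PSMG1, PSMD12 and PSMD2 are lower with G007-LK in the 4 sensitive lines (the PSMD2 call of OVCAR-4 is lost on rescaling), and PSMB5 is called only in ABC-1, where its change is -0.08 after median ratio rescaling and 0.02 after quantile normalization.

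Whether the sensitive lines responded differently from RKO was tested as an interaction over the 8 libraries of each pair of lines, and these 4 tests share the RKO libraries. In ABC-1, 37 of 45 members were more negative than in RKO and 0 more positive (37.4% and 11.4% of all genes), and 29 and 2 after rescaling (30% and 22.9%). In OVCAR-4 13 of 46 were more negative and 1, PSMB8, more positive (30.6% and 6.8%), and 7 and 10 after rescaling (16.5% and 13.8%). For OVCAR-4, which side held more members thus turned on the scaling, and the count of 13 was 8 without the first DMSO library of RKO. In COLO320DM 8 of 44 were more negative and 0 more positive (6.85% and 4.16%), against 25 and 0 after rescaling (16.7% and 12.7%). In UO-31 3 of 46 were more negative and 0 more positive (4.2% and 1.01%), against 16 and 0 after rescaling (14.5% and 6.49%). The UO-31 count was 0 without any 1 of its DMSO libraries or of the RKO libraries, and 40 or 29 without the first or second G007-LK library.

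For COLO320DM against RKO, the count was 0 to 2 without the second G007-LK library or any 1 RKO library, and 29 or 18 without the first or second DMSO library. The chaperone PSMG1 was among the members that differed from RKO, by -0.41 in COLO320DM (adjusted p = 0.0217), -0.30 in OVCAR-4 (adjusted p = 0.00028) and -0.84 in ABC-1 (adjusted p = 1.5e-07). The base subunit PSMD2 differed by -0.26 in COLO320DM (adjusted p = 0.0411) and -0.31 in ABC-1 (adjusted p = 0.00023).

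Between the sensitive lines, OVCAR-4 and ABC-1 differed most by count: 30 of 45 members had the more positive response in OVCAR-4 and 0 the more negative one (24.6% and 13.6% of all genes), with a median difference of 0.28 against 0.04 for all genes. After rescaling these counts were 29 and 1 (24.5% and 20%). COLO320DM was more positive than ABC-1 in 8 members and more negative in 1, PSME1 (21.8% and 6.3% of all genes), and in 6 and 3 after rescaling (22.9% and 17.2%). Against OVCAR-4, COLO320DM was more negative in 10 members and more positive in 0 (6.55% and 13.5%), and in 21 and 0 after rescaling (17.4% either way).

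Fewer members differed between UO-31 and the other sensitive lines. Against UO-31, COLO320DM was more negative in 1 member, PSMB10, and more positive in 0 on the deposited scale (1.29% and 1.39%), and after rescaling it was also more positive in 1, PSMC6 (0.27, adjusted p = 0.0423), against 7.23% and 9.89% of all genes. UO-31 was more negative than OVCAR-4 in 2 members, PSMC3 and PSMD2, and more positive in 0 (1.6% and 1.41%), and in 10 and 0 after rescaling (8.94% and 5.25%). It was more positive than ABC-1 in 2, PSMB9 and PSMB10, and more negative in 0 (3.57% and 1.44%), and in 1 and 2 after rescaling (9.21% and 8.94%).

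Genes around the proteasome were counted from 4 lists. Of 11 tested partners of the particle, 2 were lower in COLO320DM, 2 in UO-31, 7 in OVCAR-4, 9 in ABC-1 and 0 in RKO, and none was higher. The shares of all genes called lower were 11.6%, 8.63%, 39%, 41.2% and 2.75% in these lines. After rescaling 5, 4, 4, 6 and 0 of the partners were lower, and 1 each was higher in COLO320DM, UO-31 and OVCAR-4. Of all genes, 20.2%, 15.5%, 23%, 32.4% and 1.06% were then lower and 18.4%, 14.6%, 24.1%, 31.4% and 1.65% higher. ADRM1, a ubiquitin receptor of the base, was lower in all 4 sensitive lines (-0.29, -0.33, -0.20 and -0.24), of which rescaling left -0.09 in both OVCAR-4 and ABC-1. UCHL5, the deubiquitinase that ADRM1 binds, fell in UO-31 from 11.2 and 10.7 RPKM to 7.64 and 5.32 (-0.74 ± 0.21, adjusted p = 0.00662). POMP, the maturation factor of the 20S core, was lower in ABC-1 (-0.50). In the list of NRF1 control, NFE2L1 itself rose in COLO320DM from 39.8 and 48.5 RPKM to 61.5 and 58.8 (0.45 ± 0.10, adjusted p = 0.00486) and in ABC-1 (0.21, adjusted p = 0.0112), and 0 of 7 genes were called in UO-31 and RKO. Of the 6 or 7 tested, 2 were higher and 0 lower in COLO320DM, 1 and 3 in OVCAR-4 and 2 and 2 in ABC-1. Of all genes, ABC-1 had 16.6% higher and 41.2% lower, OVCAR-4 12.6% and 39%, and COLO320DM 7.7% and 11.6%. Rescaling gave 3 higher and 2 lower for ABC-1, 1 higher and 2 lower for OVCAR-4, and 2 higher and 1 lower for COLO320DM. For UO-31 it gave 0 higher and 2 lower, and RKO again had no calls. The rescaled shares of all genes are those given above for the partners. DDI2, the protease that releases NRF1, was lower in OVCAR-4 (-0.69) and higher in ABC-1 (0.30), there with overlapping libraries.

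Of 16 genes of ubiquitin supply and delivery, 8 were lower in OVCAR-4 and 8 in ABC-1, 2 in COLO320DM, 0 in UO-31 and 1 in RKO, and 1 to 2 were higher in each line. Of all genes, 39% and 41.2% were called lower in OVCAR-4 and ABC-1, 11.6% in COLO320DM, 8.63% in UO-31 and 2.75% in RKO. The shares called higher were 12.6%, 16.6%, 7.7%, 4.79% and 1.36% in the same order. SQSTM1, an autophagy receptor for ubiquitinated cargo, was higher in all 5 lines: from 16.1 and 17.4 RPKM to 33.0 and 33.2 in COLO320DM (0.96 ± 0.11), by 0.68 in UO-31, 0.30 in OVCAR-4, 0.67 in ABC-1 and 0.38 in RKO (adjusted p = 0.00014). RNF146, the ubiquitin ligase that acts on tankyrase substrates, was higher in ABC-1 (0.33, adjusted p = 0.0111), and the shuttle factor UBQLN1 was lower there (-0.49). On rescaling, 7 genes of the list were higher and 3 lower in OVCAR-4 (24.1% and 23% of all genes). ABC-1 then had 4 higher and 6 lower (31.4% and 32.4%) and COLO320DM 2 higher and 5 lower (18.4% and 20.2%). UO-31 had 2 of each (14.6% and 15.5%), and RKO had 1 higher (1.65%). Of 11 genes of antigen presentation that are reported, 6 were higher and 2 lower in OVCAR-4, against 12.6% and 39% of all genes, with HLA-E at 0.34, HLA-B at 0.32 and NLRC5 at 0.35. The HLA genes are alike in sequence, and their values are uncertain where reads could match several of them. TAP2, a subunit of the peptide transporter, was lower in UO-31 (-0.70), OVCAR-4 (-0.47) and ABC-1 (-0.82). In UO-31 0 were higher and 1 lower (4.79% and 8.63% of all genes), and in ABC-1 2 of 10 were higher and 3 lower (16.6% and 41.2%). In COLO320DM and RKO 0 of 11 were called by limma. After rescaling UO-31 had 3 higher and 1 lower, ABC-1 had 5 and 2, and the OVCAR-4 counts were as before. The rescaled shares of all genes in these lines are those given above for the ubiquitin list.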

How the data were processed

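The deposited table gave RPKM per gene for 20 libraries of 5 cell lines. Per the labels and the study's methods, the authors sequenced poly(A) RNA on a HiSeq instrument and mapped reads with SOAPaligner/SOAP2 to hg19 reference genes, allowing up to 2 mismatches. No source used here states versions, strand setting or the handling of reads matching several genes. RPKM holds no counts, so depth is unknown and no count test could be run. Per-line files with the authors' log2 ratios and NOISeq probabilities were not used.

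Of 21610 entries, 8 without a symbol (at most 0.00134% of RPKM) were dropped, 371 repeated symbols were joined, and 5 symbols whose hyphen was written as NA were restored, leaving 21201. Members and lists were chosen with earlier results of these data known. Log2(RPKM + 0.5) was fitted with limma 3.58.1 (R 4.3.3, trend and robust) over genes averaging 1 RPKM or more in the line, with Benjamini-Hochberg adjustment over all of them. A joint fit took the 4 sensitive lines with a block for line, responses were compared as interactions, and DMSO levels across 5 lines by F test and pairs. The joint fit and the interactions took genes reaching 1 RPKM in each line compared. The DMSO tests took genes reaching it in the DMSO libraries of at least 1 line. Steps were tested on simulated data. Named with values in every library were the catalytic, inducible, PSME1, PSME2 and PSMF1 genes, the 3 largest called rises and falls per line, the 4 largest pooled changes among members called alike in 4 lines, and members called in opposite directions. PSMA3, PSMD4 and the 4 lines of PSMD14 beyond RKO, and PSMD2 outside UO-31, were added after their values were seen. Alternatives were no filter, a filter of 5 RPKM, other pseudocounts, rescaling by median ratio, quantile normalization, equal sums, a replicate block, 1 fit over 20 libraries and leaving out libraries or lines. Gene models are from GENCODE v44 lifted to GRCh37. The kidney marker check and 1 gene of the antigen presentation list are not reported here.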

Additional observations from a re-analysis of the deposited data

Results flagged for a closer look

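The results below were singled out because 2 cell lines responded differently to G007-LK in a test of the difference itself (limma interaction over the 8 libraries of a pair, adjusted p under 0.05). They were 30 in all. With 2 libraries a group, no search for single libraries that stand apart was made. Comparisons with the same line share its libraries.

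By count of members, 1 had a more negative response in COLO320DM than in UO-31, 10 more negative than in OVCAR-4, 8 more positive and 1 more negative than in ABC-1, and 8 more negative than in RKO. In UO-31, 2 members were more negative than in OVCAR-4, 2 more positive than in ABC-1, and 3 more negative than in RKO. In OVCAR-4, 30 were more positive than in ABC-1, and 1 was more positive and 13 more negative than in RKO. In ABC-1, 37 were more negative than in RKO. The shares of all genes called in these directions were 1.29% for COLO320DM against UO-31, 6.55% against OVCAR-4, 21.8% and 6.3% against ABC-1, 1.6% for UO-31 against OVCAR-4, 3.57% against ABC-1 and 24.6% for OVCAR-4 against ABC-1. Against RKO they were 6.85% for COLO320DM, 4.2% for UO-31, 6.8% and 30.6% for OVCAR-4 and 37.4% for ABC-1. The 13 and the 1 of 46 members of OVCAR-4 against RKO were no larger a share than the 30.6% and 6.8%. Nor were the 8 and the 1 of 44 members of COLO320DM against ABC-1 a larger share than the 21.8% and 6.3%. The counts between UO-31 and the other sensitive lines were 1 or 2 members each and were not tested against the shares.

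The immunoproteasome gene PSMB10 gave a log2 difference of -0.80 ± 0.13 for COLO320DM minus UO-31, -0.68 ± 0.11 for COLO320DM minus OVCAR-4 and -0.58 ± 0.11 for COLO320DM minus RKO. It gave 0.55 ± 0.13 for UO-31 minus ABC-1 (adjusted p = 0.0423, 0.0926 after rescaling), 0.43 ± 0.10 for OVCAR-4 minus ABC-1 (adjusted p = 0.00034) and -0.33 ± 0.10 for ABC-1 minus RKO (adjusted p = 0.00934, 0.114 after rescaling). PSMB9 gave 1.05 ± 0.18 for UO-31 minus ABC-1, 1.08 ± 0.15 for OVCAR-4 minus ABC-1 and -1.13 ± 0.14 for ABC-1 minus RKO (adjusted p = 0.00755, 1.3e-08 and 4.5e-06), at 1.32 to 3.51 RPKM in ABC-1. PSMB8 gave 0.23 ± 0.06 for OVCAR-4 minus RKO (adjusted p = 0.0111).

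The base subunit PSMD2 gave -0.26 for COLO320DM minus RKO, -0.56 for UO-31 minus RKO and -0.31 for ABC-1 minus RKO. The chaperone PSMG1 gave -0.41 for COLO320DM minus RKO, -0.30 for OVCAR-4 minus RKO and -0.84 for ABC-1 minus RKO. The lid subunit PSMD12 gave -0.31 for OVCAR-4 minus RKO (adjusted p = 0.0002) and -0.59 for ABC-1 minus RKO (adjusted p = 4.5e-06). The differences from RKO share its 4 libraries, and the causes of these differences were not tested.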

How the results depend on the processing

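Depth is unknown and groups held 2 libraries. The p-values within a line, of the interactions and of the DMSO levels measure the spread between those replicates. The joint fit over the sensitive lines had a block for line but no term for differences in response between lines. Its p-values therefore take in those differences as well as the replicate spread. Where calls changed below, the cause was not tested. Of 318 recomputed counts of members, 236 stayed within 1.5 times the reported count and 82 did not. Of the recomputed values of single members, 470 kept their side of the threshold, 40 passed it, 34 no longer did and 1 changed sign, PSMB5 in ABC-1 at 0.018 under quantile normalization.

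Members lower in COLO320DM (20) were 9 without the filter, 32 in 1 fit over 20 libraries and 0 to 28 with a library left out. In UO-31 (17) they were 2 without the filter, 29 with equal sums, 35 in the 20-library fit and 0 to 41 with a library left out, and members higher there (0) were 3, 2 and 2 under quantile normalization, equal sums and the 20-library fit, and 0 to 3 with a library left out. In OVCAR-4 members lower (28) were 11 under median ratio rescaling, 14 under quantile normalization, 10 in the 20-library fit and 17 to 31 with a library left out, and members higher (2) were 10, 5, 5 with equal sums, 0 in the 20-library fit and 1 to 2. In ABC-1 members lower (39) were 32 to 41 with a library left out, and members higher (1) were 2 under each of the 3 scalings and 0 to 1 with a library left out. In RKO members lower (5) were 0 without the filter, 9 at 5 RPKM, 1 and 1 under median ratio and quantile scaling, 2 with equal sums, 0 in the 20-library fit and 0 to 1 with a library left out.

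Over the sensitive lines, members lower (41) were 26 under quantile normalization and 1 to 32 with a replicate number left out (1 without replicate 2), and members higher (0) were 1 under median ratio rescaling, 2 under quantile normalization and 1 without COLO320DM. Responses more negative than in RKO were 25 under median ratio rescaling and 0 to 29 with a library left out for COLO320DM (8), 16, 21 under quantile normalization and 0 to 40 for UO-31 (3), 7, 7 and 8 to 17 for OVCAR-4 (13) and 35 to 39 with a library left out for ABC-1 (37). More positive ones were 1 under quantile normalization and 0 to 4 with a library left out for UO-31, 10 and 2 under median ratio and quantile scaling for OVCAR-4, and 1 at 5 RPKM, 2, 3 and 0 to 2 for ABC-1. All 46 members differed between lines in DMSO under each alternative run.

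Deviations of same-numbered libraries correlated at -0.25, -0.02, 0.01, -0.25 and 0.06 in COLO320DM, UO-31, OVCAR-4, then ABC-1 and finally RKO. With 2 libraries a group these values cannot settle whether replicate numbers pair the libraries. With the replicate block, members lower were 3 in COLO320DM and 1 in RKO, members higher 0 in ABC-1, and responses more negative than in RKO 0 in COLO320DM and 9 in UO-31. With the pairing crossed in COLO320DM, chosen after seeing the data as were the single-library fits of the pooled, interaction and DMSO comparisons, 35 were lower. Leaving out a replicate number from the interaction and DMSO fits was not run, since no residual degrees of freedom remained.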
